A study of Sus scrofa with 48 samples.

Results

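PGLYRP2 and beta-defensin genes were described in the liver and fat of 24 pigs through the 3 array probe sets annotated with the symbol PGLYRP2 or DEFB1, out of 23999 probe sets that are not controls. They stand for 3 of the 6774 genes that have a probe set with a single symbol. PGLYRP2, gene ID 396557 with the synonym pPGRP-LB, was read by 1 probe set. The symbol DEFB1 covered 2 probe sets of 2 separate genes in RefSeq: gene ID 396819, whose synonym is PBD-1, and gene ID 404699, whose synonym is PBD-2. They are called DEFB1 (PBD-1) and DEFB1 (PBD-2) here, and no gene of the 3 was read by more than 1 probe set. The genes were chosen with their fasting differences in liver and in fat known, so those differences and their contrast between the tissues are given as a description with no test.

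PGLYRP2 is a peptidoglycan amidase: it cleaves the peptide stem of bacterial cell wall peptidoglycan from its sugar backbone, and in mammals it is made mainly by the liver and secreted into blood. Beta-defensins are small, cationic, cysteine-rich peptides that damage microbial membranes and are known mainly from epithelia. Both belong to innate defence, the branch that acts on conserved microbial structures without prior exposure.

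All animals were Yorkshire gilts (young females) aged 6 months. Their line had been bred for high feed efficiency by selection on low residual feed intake, the part of intake that growth and size do not account for. They were homozygous either for D298 or for N298 of MC4R, the melanocortin 4 receptor through which the hypothalamus controls appetite and energy balance. For 3 days the gilts were fasted or had feed ad libitum, and genotype and feeding were crossed in blocks. Liver and fat of each gilt were hybridised to 1 array each, giving 48 arrays in 8 groups of 6. The deposited values were MAS5 signals, a linear brightness per probe set, and differences are given on the log2 scale with nothing added to the signal.

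Median array signals ran from 122 to 149 for liver and from 159 to 192 for fat, and no 2 arrays were identical. Among the hepatocyte markers, transthyretin (TTR) had a median signal of 35163 in fed liver and 34.9 in fed fat. Adiponectin (ADIPOQ), an adipocyte marker, had a median of 25861 in fed fat and 48.7 in fed liver. Albumin (ALB) set 4 fat arrays apart: D298 fasted replicate 5, D298 fed replicate 4, N298 fed replicate 3 and N298 fed replicate 6 had ALB signals of 7463 to 9507, against 90.3 to 341 on the other 20. The fitted fat differences of the 3 genes and the list counts in fat are given with and without these 4 arrays, while the correlations and likeness in fat include them. The summed signal of 11 muscle markers also ranged widely in fat, from 1425 to 98322 in fed gilts and from 1508 to 151448 in fasted gilts. No deposited value was 0 or below, so a signal above 0 does not show that a marker was expressed. In whole tissue, fewer cells of a type and less RNA per cell cannot be told apart.

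PGLYRP2 was lower in the fat of every fasted gilt than in that of any fed gilt, and higher in the liver of 11 of 12 fasted gilts than in that of any fed gilt. In fat, the fed arrays lay at 430 at the lowest, 1033 at the median and 2580 at the highest. The fasted fat arrays lay at 71.0, 117 and 149, all below the median probe set of their array (percentiles 33.4 to 47.1). How much of that dim fasted signal is background was not measured here. The feeding states did not overlap in fat. There 1.69% of all probe sets had fed and fasted arrays that did not overlap, and 1.11% of all probe sets were separated with fasted gilts lower. Since the gene was chosen on this contrast, nothing is read from that count.

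The fitted fasting difference of PGLYRP2 in fat was -3.19 ± 0.22 on the log2 scale (SE, 12 fasted and 12 fed gilts), a 9.10-fold lower signal, and the 9th largest fall of 23999 probe sets. Its size depends on the dim fasted signal, and with 32 added before the log2 step it was -2.87. Both genotypes had the fall: D298 fat arrays were at 430, 1093 and 2147 (lowest, median, highest) when fed and at 93.8, 119 and 141 when fasted. N298 fat arrays were at 631, 962 and 2580 when fed and at 71.0, 115 and 149 when fasted. The spread lay mainly among fed gilts, whose highest signal was 6.01 times their lowest, against 2.10 times among fasted gilts. Within groups, PGLYRP2 in fat had an SD of 0.59 on the log2 scale, above that of 96.6% of the 11999 brighter probe sets of fat, whose median SD was 0.25.

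The fall was as large without the 4 fat arrays high in ALB, at -3.15, with 9 fed arrays from 430 to 2580 and 11 fasted arrays from 71.0 to 149. The 3 fed arrays among the 4 had PGLYRP2 signals of 897, 1028 and 1436, inside the range of the other fed arrays, and the fasted array was at 93.8. Across all fat arrays the summed signal of 12 hepatocyte markers was 4126 to 20912 in fed and 6063 to 20053 in fasted gilts, and it was 4126 to 6149 and 6063 to 10067 without those 4. APOA1, the main protein of high-density lipoprotein, was the hepatocyte marker that rose in fasted fat (log2 difference 0.70, limma adjusted p = 9.65e-06). It made up most of the sum: its median was 4429 in fed and 7066 in fasted fat, where the sums had medians of 5320 and 7886. The other 11 markers did not pass, and the median log2 difference of the 12 was -0.30. The 10 adipocyte markers summed to 77149 to 114259 in fed and 74911 to 107167 in fasted fat, and 1 of them rose and 2 fell, where 34.2% of all genes passed in fat (15.3% rose and 18.9% fell). Among the 9 endothelial markers 5 rose, with sums of 10895 to 14809 and 13020 to 21924, and what part this had in the PGLYRP2 signal was not tested.

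RNA quality readings differed with feeding in fat, mainly in N298 gilts. The log2 ratio of the 3′ to the 5′ GAPDH control probe sets, which rises as RNA is degraded or incompletely copied, had a median of 1.82 on fasted and 1.22 on fed fat arrays, against 1.01 and 0.97 in liver. By genotype the fat medians were 1.26 fasted and 1.23 fed in D298 gilts and 2.03 and 1.14 in N298 gilts, whose PGLYRP2 differences in fat were -3.13 and -3.25. With this ratio as a covariate, the PGLYRP2 difference was -3.15 in fat and 0.62 in liver.

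**Figure D1:**
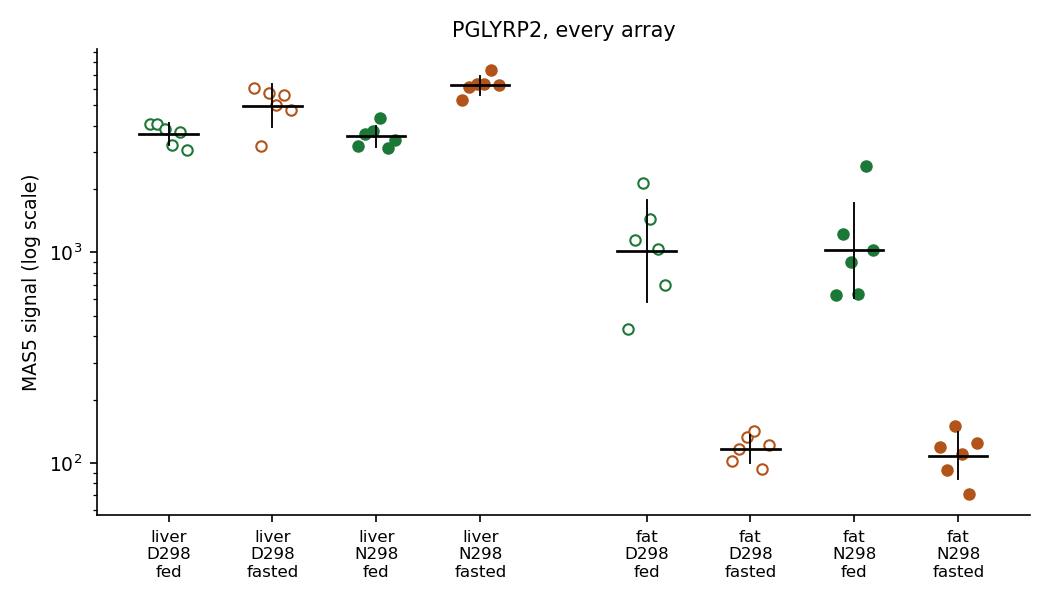
PGLYRP2 signal (log axis) on each of the 48 arrays by tissue, genotype and feeding state; open points are D298 and filled points N298 gilts, horizontal bars the geometric mean and vertical lines 1 SD of log2 signal over 6 arrays. Fasted fat arrays lie between 71.0 and 149, below all fed fat arrays, and fasted liver arrays lie between 3200 and 7349, with 11 of 12 above the highest fed array at 4356.

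In liver the PGLYRP2 signal moved the other way and by less. The fed liver arrays were at 3088 at the lowest, 3697 at the median and 4356 at the highest, and the fasted ones at 3200, 5902 and 7349. The overlap came from 1 array, that of D298 fasted replicate 2 at 3200, while the next lowest fasted array was at 4737. The difference was 0.63 ± 0.091 (SE), or 1.54-fold higher, and ranked 738th among rises of 23999 probe sets. In liver 0.2% of probe sets had all fasted arrays above all fed ones, a stricter criterion that PGLYRP2 did not meet. The share with all but 1 fasted array above all fed ones was not computed, so nothing is read from that count. At an adjusted p of 0.05 in limma, the fasting contrast called 4.47% of all probe sets in liver and 25.2% in fat.

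PGLYRP2 in liver was also tight within groups, with an SD of 0.22, above that of 27.6% of the brighter liver probe sets. The hepatocyte markers in liver summed to 295715 to 412876 in fed and 294079 to 378194 in fasted gilts. None of the 12 passed the threshold there, where 7.19% of all genes passed.

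Genotype was not used to choose the genes and was tested. N298 minus D298 was 0.15 for PGLYRP2 in liver (95% interval -0.04 to 0.34, limma adjusted p = 0.953) and -0.05 in fat (-0.50 to 0.41, adjusted p = 0.995). Without the 4 arrays high in ALB the fat value was 0.06. Within fasted liver, D298 arrays were at 3200, 5316 and 6095 (lowest, median, highest) and N298 arrays at 5330, 6294 and 7349. These 2 groups overlapped, with 1 of the 6 N298 arrays, at 5330, below the 3 highest D298 arrays. Their difference was 0.34 (0.07 to 0.61), with a limma p of 0.0162 that became 0.852 after adjustment, and it was 0.22 without replicate 2, which includes the low D298 array.

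In fed liver the same difference was -0.04 (-0.31 to 0.23, limma adjusted p = 0.987). The PGLYRP2 fasting difference in liver was 0.44 ± 0.13 in D298 and 0.81 ± 0.13 in N298 gilts. The interaction, which tests whether those differ, was 0.38 (-0.0032 to 0.76), with a limma p of 0.0518 before and 0.850 after adjustment. It was 0.23 at the lowest and 0.47 at the highest when each replicate number was left out. In fat the fasting difference was -3.13 ± 0.31 in D298 and -3.25 ± 0.31 in N298 gilts, with an interaction of -0.12 (-1.03 to 0.79, adjusted p = 0.993). Without the 4 arrays high in ALB the fat interaction was -0.55.

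Neither the genotype nor the interaction test in limma called any probe set in either tissue at an adjusted p of 0.05, 0.0% of 23999. At an unadjusted p under 0.05 the genotype test had 1212 in liver and 1321 in fat, and the interaction test 1390 and 1368.

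PGLYRP2 was lower in fat than in liver already in fed gilts. The difference between the tissues was -1.82 ± 0.17 (SE, 12 gilts in both tissues), or 3.54-fold lower in fat, with a limma adjusted p of 2.12e-13 where 62.3% of probe sets passed, 22.1% lower in fat. The highest fed fat array, at 2580, was below the lowest fed liver array, at 3088. The share of all probe sets separated in this way was not computed, so nothing is read from it. Without the 4 arrays high in ALB the value was -1.85. In fasted gilts, as a description, the measured signal was 49.6-fold lower in fat than in liver, and the fasted fat arrays were dim.

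DEFB1 (PBD-2) was higher in the liver of fasted gilts, on a background of wide differences between animals. The fed liver arrays were at 130 at the lowest, 982 at the median and 3512 at the highest, a 27.0-fold range. The fasted liver arrays were at 1235, 2644 and 7945. The feeding states overlapped: all 12 fasted arrays were above the fed median, and 4 were above the highest fed array. The share of all probe sets with such counts was not computed, so nothing is read from them. By the stricter criterion of no overlap at all, 0.454% of liver probe sets had separate states.

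The fasting difference of DEFB1 (PBD-2) in liver was 1.63 ± 0.42 (SE, 12 and 12 gilts), or 3.09-fold higher, the 22nd largest rise among 23999 probe sets. It was 1.69 ± 0.59 in D298 gilts, whose arrays were at 376, 840 and 3512 when fed and 1235, 3026 and 7945 when fasted. It was 1.56 ± 0.59 in N298 gilts, at 130, 982 and 2076 when fed and 1629, 2644 and 3763 when fasted. Leaving out each replicate number gave 1.49 to 1.75. The array at 130, N298 fed replicate 6, stood apart from its group, whose next lowest array was at 820.

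Within groups DEFB1 (PBD-2) in liver had an SD of 1.12 on the log2 scale, and only 52 of the 11999 brighter liver probe sets had an SD at least as high. Neither genotype nor the interaction was called: N298 minus D298 was -0.14 (-1.01 to 0.72, limma adjusted p = 0.986) and the interaction -0.13 (-1.86 to 1.59, adjusted p = 0.991).

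In fat the DEFB1 (PBD-2) probe set was dim. Fed fat arrays were at 18.3, 65.0 and 105 (lowest, median, highest) and fasted ones at 8.81, 50.6 and 85.9, all below the median probe set of their array. The ranges overlapped, and the fasting difference was -0.52 ± 0.34 (SE), or -0.69 without the 4 arrays high in ALB. N298 minus D298 in fat was -0.45 (-1.16 to 0.26, limma adjusted p = 0.941). That value rested on few arrays: it was -0.07 without the 4 arrays high in ALB, and -0.16 without replicate 4 and -0.72 without replicate 2. The interaction in fat was 0.10 (-1.31 to 1.52, adjusted p = 0.997), and -0.42 without the 4 arrays. SRY, a Y-linked gene that female pigs lack, had a median of 22.8 on the same fed fat arrays and reached 49.4 in fasted fat, and EIF1AY, also Y-linked, had medians of 3.79 and 2.72. In fed gilts the measured DEFB1 (PBD-2) signal was 15.0-fold lower in fat than in liver, a log2 difference of -3.90 ± 0.38 with a limma adjusted p of 9.16e-13, and -3.75 without the 4 arrays high in ALB. How much of the fat signal is background was not measured here, and any background in it makes these values understate the difference.

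DEFB1 (PBD-1) was dim in both tissues, and its fed and fasted arrays overlapped. Its liver arrays were at 28.6, 82.3 and 158 (lowest, median, highest) when fed and at 30.8, 86.2 and 139 when fasted. Its fat arrays were at 38.4, 50.1 and 76.4 when fed and at 20.4, 57.1 and 75.6 when fasted. The states overlapped in both tissues, though 4 of the 12 fasted fat arrays were below the lowest fed one. The share of all probe sets with such a count was not computed, so nothing is read from it. The fasting differences were -0.03 ± 0.21 in liver and -0.14 ± 0.22 in fat (SE), the latter -0.33 without the 4 arrays high in ALB.

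N298 minus D298 for DEFB1 (PBD-1) was -0.40 in liver (-0.82 to 0.03, limma adjusted p = 0.951) and -0.04 in fat (-0.49 to 0.41, adjusted p = 0.995). The liver value was -0.16 without replicate 5, whose N298 arrays at 28.6 and 30.8 were the lowest of their groups. The interactions were 0.25 in liver and -0.14 in fat, with limma adjusted p-values of 0.954 and 0.989. Without the 4 arrays high in ALB the fat values were 0.02 for genotype and 0.09 for the interaction. Fat minus liver in fed gilts was -0.63 ± 0.22 (adjusted p = 0.0105), or 1.55-fold lower in fat, and -0.57 without the 4 arrays high in ALB (adjusted p = 0.0392). Both signals were dim, and how much of them is background was not measured here. The Y-linked SRY reached 63.6 in fed liver and 28.2 in fed fat.

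**Figure D2:**
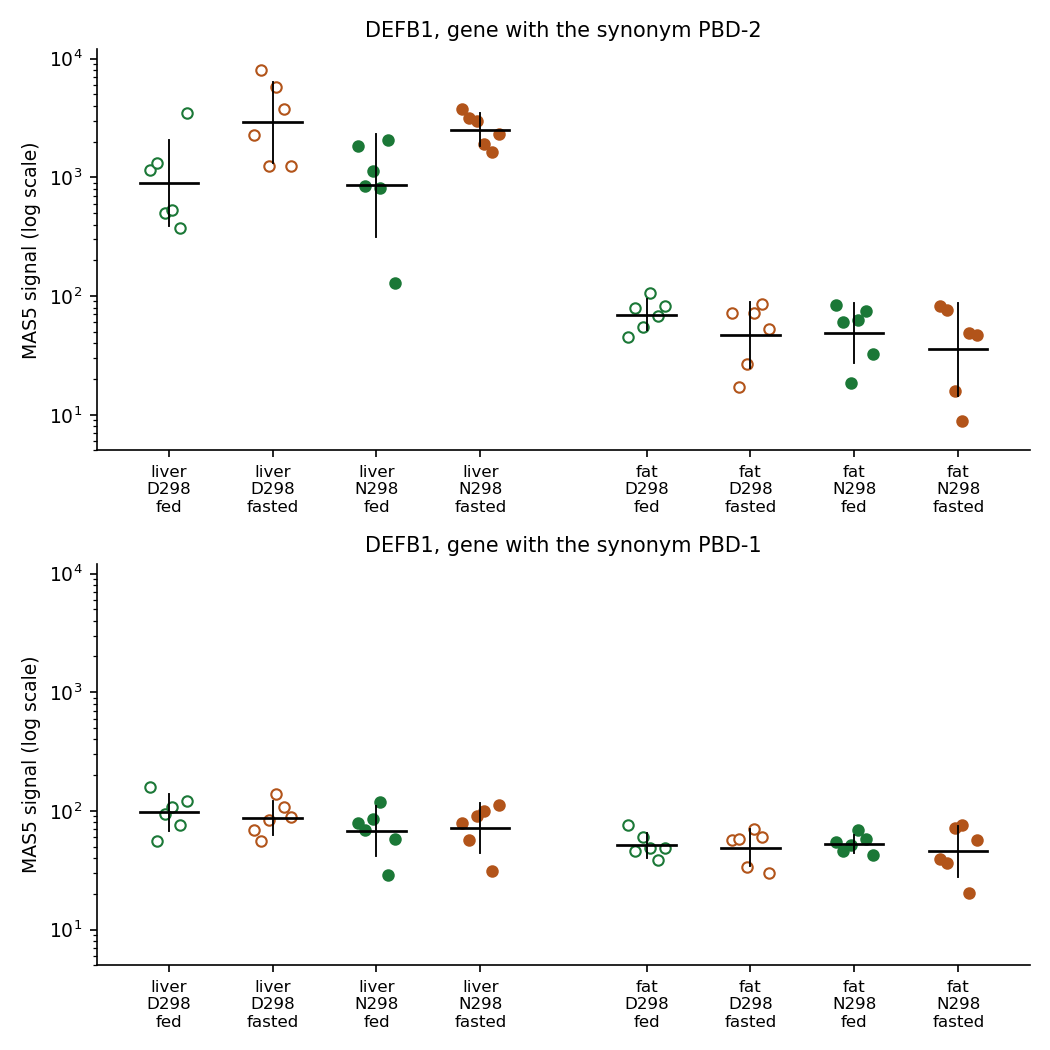
Signal (log axis) of the 2 DEFB1 probe sets on each of the 48 arrays by tissue, genotype and feeding state, PBD-2 above and PBD-1 below on the same scale; open points are D298 and filled points N298 gilts, bars the geometric mean and 1 SD of log2 signal over 6 arrays. PBD-2 in liver runs from 130 to 7945 and in fat from 8.81 to 105, while PBD-1 stays between 20.4 and 158 in both tissues.

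The 2 probe sets that share the symbol DEFB1 had no correlation that passed. Pearson's r between their log2 signals was 0.04 in fed liver, 0.14 in fasted liver, -0.06 in fed fat and -0.34 in fasted fat (12 arrays each), with Spearman's rho of 0.04, 0.13, -0.13 and -0.27. Without the 2 arrays farthest from the median these r were 0.40, -0.44, 0.04 and -0.38. PGLYRP2 and DEFB1 (PBD-2) had an r of -0.58 in fasted liver (rho -0.44), which was -0.05 without the 2 farthest arrays and so rested on them. No r of these 8 passed a permutation test after adjustment, the lowest adjusted p being 0.356.

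Liver and fat of the same gilt were also compared, after removal of group and replicate number. The r over 24 gilts was -0.36 for PGLYRP2 (rho -0.32, permutation adjusted p = 0.129), 0.10 for DEFB1 (PBD-2) (rho 0.18, adjusted p = 0.646) and 0.46 for DEFB1 (PBD-1) (rho 0.34, adjusted p = 0.0700). Without the 2 gilts farthest from the liver median these were -0.54, -0.03 and 0.51. The permutations took the residuals as independent although group and replicate number had been removed, so their p-values are too small.

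**Figure D3:**
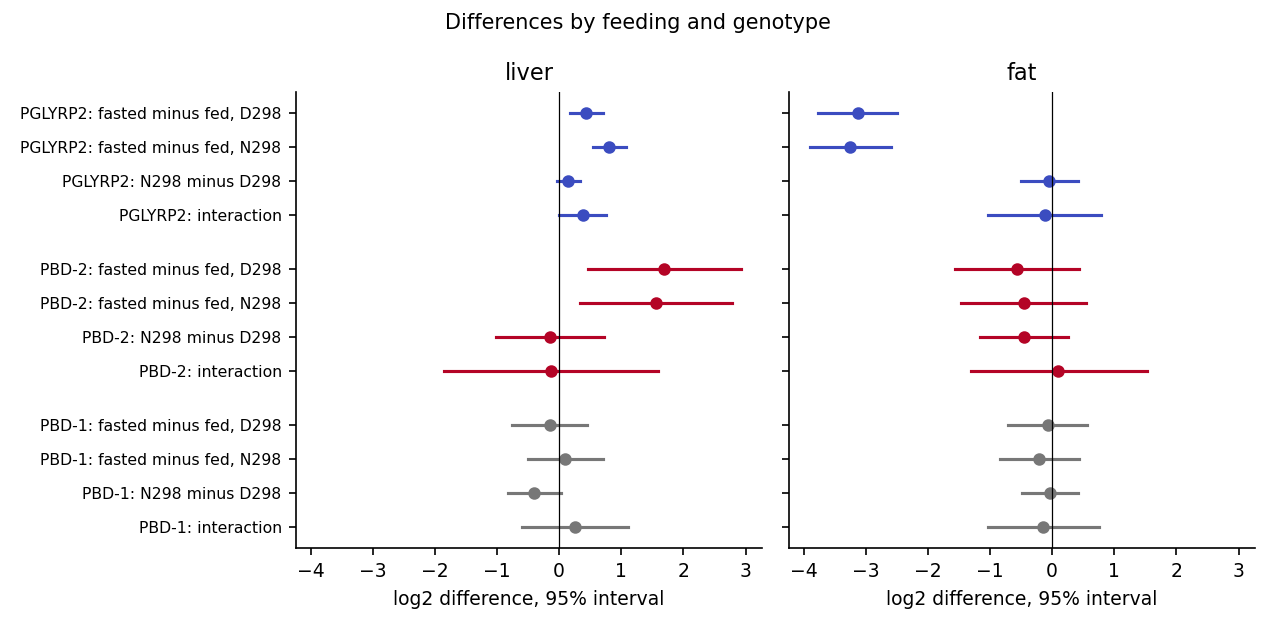
Log2 differences with 95% intervals (horizontal axis) for PGLYRP2, PBD-2 and PBD-1 in liver (left) and fat (right): fasted minus fed in each genotype, N298 minus D298, and the interaction of genotype and fasting. The fasting intervals of PGLYRP2 lie above 0 in liver and near -3.19 in fat, those of PBD-2 above 0 in liver, and each genotype and interaction interval includes 0.

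The variation of DEFB1 (PBD-2) between gilts of a group was set against 14 measured acute phase genes, which encode plasma proteins that the liver makes in larger or smaller amounts during inflammation. These 28 correlations, of which 14 are for PGLYRP2, were added after the data had been seen and use residuals of group and replicate number over 24 liver arrays. DEFB1 (PBD-2) varied in the same direction as CRP, C-reactive protein, at r = 0.79 (rho 0.84), with a permutation p of 1e-05, the smallest these resamples can give, and an adjusted p of 0.00028. The r was 0.86 among fed and 0.85 among fasted gilts, and 0.78 without the 2 farthest arrays. CRP stood 13th from the top of 4996 genes ranked by this r, and ITIH4, a porcine major acute phase protein, 27th, with r = 0.76 (rho 0.66, permutation adjusted p = 0.00042) and 0.63 without the 2 farthest arrays.

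The other 12 acute phase genes did not pass for DEFB1 (PBD-2), with r from -0.41 (SAA2) to 0.46 (FGG), and the median of the 14 was 0.20 against 0.01 over all genes compared. PGLYRP2 went against CRP, at r = -0.58 (rho -0.59, permutation adjusted p = 0.0228), and -0.50 without the 2 farthest arrays. This r was -0.35 among fed and -0.60 among fasted gilts. CRP stood 217th from the bottom for PGLYRP2, and no other acute phase gene passed, the next being ITIH4 at r = -0.52 (permutation adjusted p = 0.0607). Array-wide properties shared by both genes of a pair, such as RNA quality, enter these values. The permutations of all 28 correlations took residuals as independent although group and replicate number had been removed, so their p-values are too small.

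CRP itself was at 2935, 9982 and 26308 in fed liver (lowest, median, highest) and at 1343, 2952 and 23016 in fasted liver, overlapping widely. Its fasting difference was -1.09 ± 0.44 and did not pass (limma adjusted p = 0.199). ITIH4 gave -0.10 (adjusted p = 0.754), and DEFB1 (PBD-2) 1.63 on the same arrays. The summed signal of 9 macrophage markers in liver was 28761 to 45707 in fed and 29334 to 50511 in fasted gilts, and that of 11 epithelial markers 16204 to 23832 and 13618 to 29903. None of the macrophage markers passed, while among the epithelial ones KRT10 and CLDN4 rose and CDH1 fell, where 7.19% of all genes passed in liver (4.09% rose and 3.1% fell). Their part in the DEFB1 (PBD-2) signal was not tested.

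**Figure D4:**
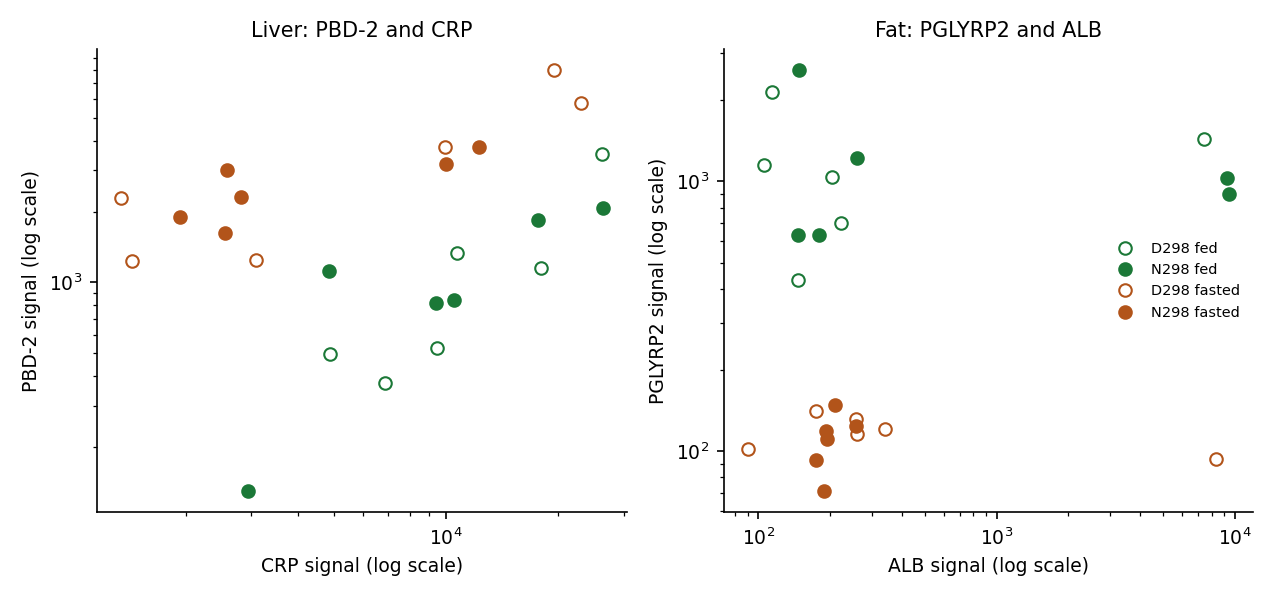
Left, DEFB1 (PBD-2) signal against CRP signal on the 24 liver arrays; right, PGLYRP2 signal against ALB signal on the 24 fat arrays, all axes logarithmic, green for fed and brown for fasted gilts, open for D298 and filled for N298. In liver the signals of PBD-2 and CRP rise together within each feeding state (r of residuals 0.86 fed, 0.85 fasted), and in fat the 4 arrays with ALB of 7463 to 9507 lie within the PGLYRP2 range of their own feeding state.

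The genes whose log2 signal was most like that of PGLYRP2 in liver, over all 24 arrays and 4996 genes, were ACAD11 (r = 0.91), ACADL (0.90) and RETSAT (0.89). ACAD11 and ACADL are acyl-CoA dehydrogenases of fatty acid oxidation and RETSAT a retinol saturase. Each rose with fasting in liver, by 0.69, 1.17 and 1.14 on the log2 scale, so feeding state is part of the likeness. After removal of group and replicate number the closest were OTC of the urea cycle (0.86), IL16 (0.84) and ACADL (0.84), of which OTC and IL16 gave fasting differences of -0.01 and -0.22 that did not pass.

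In fat the closest to PGLYRP2 of 4822 genes were SDHC, a subunit of succinate dehydrogenase, ACSS2, which makes cytosolic acetyl-CoA from acetate, and ECHDC1, an ethylmalonyl-CoA decarboxylase, each at r = 0.95. Their fasting differences were -1.31, -2.61 and -2.20, so feeding state is part of this likeness as well. Genes picked for likeness to PGLYRP2 over both feeding states share its fall by that choice, so nothing is read from it. The closest on residuals were ATL2 (0.75), DCTN5 (0.74) and ANAPC13 (0.71). Over the 12 fed fat arrays alone, an addition made after the data had been seen, PSME4 (0.90), ARL6IP1 (0.85) and the cell cycle inhibitor CDKN1A (0.84) led.

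For DEFB1 (PBD-2) in liver the closest genes were MRPL48 (0.87), LITAF (0.83) and EDEM2 (0.82), and on residuals LITAF (0.85), DYNLT1 (0.84) and SPI1 (0.84), a transcription factor of myeloid cells. With fasting MRPL48 and EDEM2 rose by 0.40 and 0.33 (limma adjusted p = 0.0283 and 0.0401), so feeding state is part of their likeness. LITAF gave a fasting difference of 0.64 (limma adjusted p = 0.118), DYNLT1 -0.04 (adjusted p = 0.921) and SPI1 0.03 (adjusted p = 0.953). In fat, where the DEFB1 (PBD-2) probe set was dim, VSTM4 (0.64), JMJD6 (0.63) and PLOD3 (0.63) were the closest of 4823 genes, and on residuals LOC100157017 (0.72), PPIF (0.72) and NAA38 (0.69). All these values of likeness are descriptions, and their genes share arrays and RNA.

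Among 78 other innate defence genes on 6 lists, 0 rose and 3 fell with fasting in liver, 3.85% against 7.19% of 6774 genes (4.09% rose and 3.1% fell), at an adjusted p of 0.05 in limma. In fat 10 rose and 3 fell, 16.7% against 34.2% of all genes (15.3% rose and 18.9% fell), and without the 4 arrays high in ALB 9 rose and 2 fell. The median log2 difference of the 78 was -0.11 in liver and 0.05 in fat, and that of all genes 0.005 and 0.010. None of the 78 passed in both tissues.

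The other peptidoglycan recognition proteins measured did not pass in either tissue. PGLYRP1, a neutrophil granule protein, gave -0.54 in liver and 0.12 in fat, with mean signals of 16.1 to 57.3. PGLYRP4, known from epithelia, was matched only as a RefSeq synonym of the gene with the array symbol PPGRP-S. That gene gave -0.24 and 0.07, with mean signals of 65.6 to 78.5. The 3 further beta-defensins measured (DEFB110, DEFB113 and DEFB125) had mean signals of 7.36 to 20.2 and did not pass in either tissue.

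Of 20 genes of peptidoglycan and bacterial sensing, IRAK1, a kinase of Toll-like receptor signalling, fell in liver by 0.41 (limma adjusted p = 0.00906). In fat LY96, the co-receptor of TLR4, rose by 0.34 (adjusted p = 0.00262), as did IKBKG, the regulatory subunit of the kinase upstream of NF-kappaB, by 0.46 (adjusted p = 0.000676). Peptidoglycan-binding TLR2 gave -0.06 in liver and -0.20 in fat, and neither value passed. IRAK1 lost its call without replicate 1 and without replicate 5.

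Of 21 other antimicrobial proteins, LEAP2, a liver-made antimicrobial peptide, fell in liver by 0.40 (limma adjusted p = 0.0450), a call lost under 6 alternatives. In fat the calprotectin subunits S100A8 and S100A9 of neutrophils fell by 0.67 and 1.17, and PI3, an elastase inhibitor, by 0.91. These subunits are also 2 of the 7 neutrophil markers measured, whose summed signal was 1219 to 3868 in fed and 1280 to 2421 in fasted fat. FCGR3A made up most of the sum: its mean signals were 1103 fed and 1384 fasted, where the sums had medians of 1356 and 1648. Its difference of 0.33 did not pass. Of the 7 markers 0 rose and 2 fell, where 15.3% of all genes rose and 18.9% fell, and their median log2 difference was -0.48. S100A8 lost its call without the 4 arrays high in ALB and without replicate 6, and PI3 without replicate 4 and with the GAPDH ratio as a covariate. The ribonucleases ANG and RNASE4 rose in fat by 1.03 ± 0.099 and 0.64 ± 0.10 (adjusted p = 1.95e-07 and 6.22e-05), and their values in liver, 0.21 and -0.04, did not pass.

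None of the 14 acute phase genes passed in liver, where their differences ran from -1.09 to -0.05. In fat SAA2 rose by 0.28 and ORM1 by 0.32, with limma adjusted p-values of 0.00993 and 0.00379. SAA2 lost its call with arrays centred on their medians, with the GAPDH ratio as a covariate and without replicate 2.

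Of 18 cytokine and chemokine genes with their receptors and factors, CEBPD, a transcription factor of the acute phase response, fell in liver by 0.61 ± 0.13 (limma adjusted p = 0.00767). In fat the receptors IL1R1 and TNFRSF1A rose by 0.50 and 0.21, and IL6R and CXCL8 by 1.87 and 1.44. IL6R and CXCL8 did so between mean signals of 5.32 and 19.4 and of 5.73 and 15.5, the level of the SRY probe set. CXCL8 lost its call under 9 alternatives and TNFRSF1A under 7, both of them also without the 4 arrays high in ALB.

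**Figure D5:**
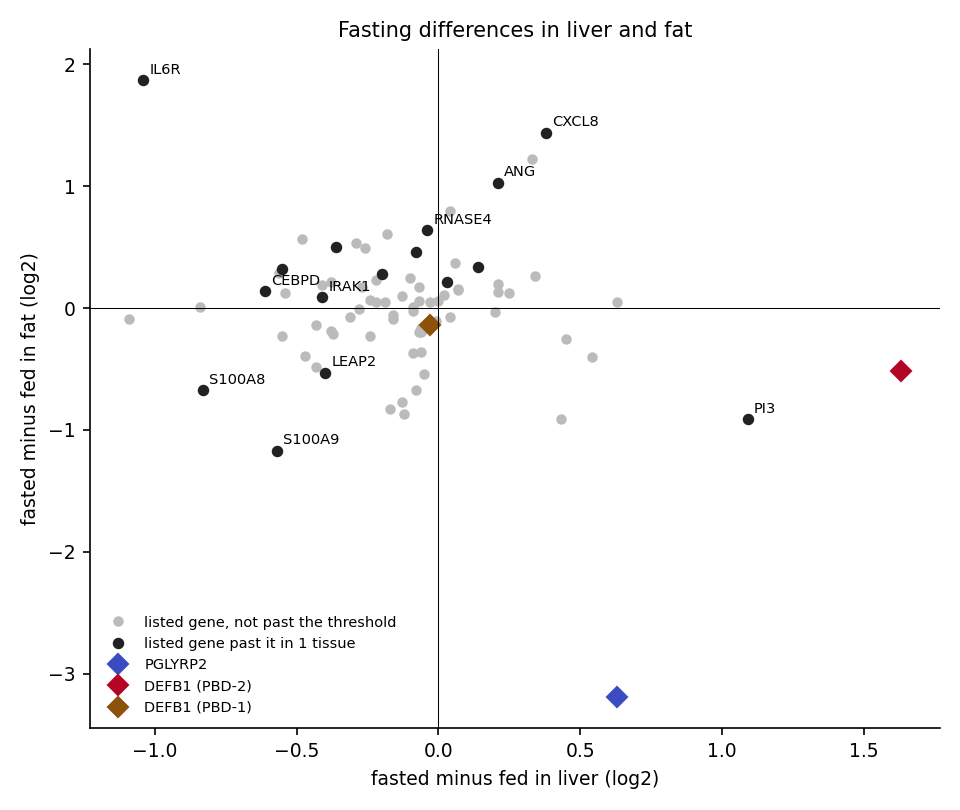
Fasted minus fed log2 difference in liver (horizontal axis) against that in fat (vertical axis) for 78 innate defence genes, grey where neither tissue passed the limma threshold and black where 1 tissue did, with PGLYRP2, DEFB1 (PBD-2) and DEFB1 (PBD-1) as coloured diamonds. PGLYRP2 sits at 0.63 in liver and -3.19 in fat and PBD-2 at 1.63 and -0.52, while the listed genes run from -1.17 to 1.87 in fat.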

How the data were processed

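The deposited values were MAS5 signal intensities, made by the authors with the affy software per the submitters' processing notes; versions and detection calls are not given in the sources used here. The trimmed mean of each array (2% cut at each end) was 500 (500.1 to 500.2), no value was 0 or below, and the 124 control probe sets of 24123 were left out. Of the other 23999, GEO's platform annotation gave 10069 a single symbol, 198 several and 13732 none, and 9961 matched a RefSeq gene of the same gene ID. A gene was its brightest probe set, 6774 in all. RefSeq synonyms told the 2 DEFB1 gene IDs apart.

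Signals were log2-transformed with nothing added. A linear model of 4 groups and 6 replicate numbers, taken as blocks since the labels' design text names blocks, was fitted per tissue in limma 3.58.1 (R 4.3.3; lmFit, then eBayes with its trend option). Fat minus liver came from 1 model of 48 arrays in which gilts were random blocks (correlation 0.0841). A gilt's tissues were matched by group labels and number. In residuals, the fat array of the same number was the closest of its group for 22 of 24 liver arrays, at r of 0.0157 to 0.0649. P-values were adjusted by Benjamini-Hochberg over 23999 probe sets, with a threshold of 0.05. Correlations used 100000 resamples, 2-sided, drawn in NumPy 2.4.6 with ranks from SciPy 1.17.1, and adjustment over each family. The fit within each tissue was tested on simulated data.

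The genes and lists were chosen with earlier results of these data known. Named were the PGLYRP2 and DEFB1 probe sets, up to 4 called genes per list, tissue and direction, and the 3 genes of highest r; a TLR2 value, the listed peptidoglycan recognition proteins and defensins, and genes tied to CRP were named after their values were seen. Alternatives were a random block, no block, median-centred or quantile-normalized arrays, only the brighter probe sets, a constant of 32 before the log2 step, weighted arrays, eBayes with no trend, each replicate number left out, the GAPDH ratio as a covariate and leaving out the 4 fat arrays high in ALB. The last 2 were chosen after seeing the data. The number of arrays limits the precision.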

Additional observations from a re-analysis of the deposited data

Results flagged for a closer look

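The DEFB1 (PBD-2) signal of 130 in the liver of N298 fed replicate 6 lay far below the other 5 arrays of its group, of which the next lowest was at 820. In all, 24 groups of 6 arrays were looked at for such a gap, and chance alone gives one in about 1 of 20 groups. The same liver had the lowest CRP signal of the fed gilts, 2935.

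PGLYRP2 gave a fasting difference of 0.63 in liver and of -3.19 in fat, in opposite directions in the same 24 gilts. This difference between the tissues was not tested, because the gene was chosen for it.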

How the results depend on the processing

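The fasting difference of PGLYRP2 ran from 0.57 to 0.71 in liver and from -3.37 to -2.87 in fat over all alternatives run, and that of DEFB1 (PBD-2) in liver from 1.49 to 1.75. DEFB1 (PBD-1) in liver went from -0.03 to 0.09 with quantile normalization. No genotype or interaction value of the 3 genes passed under any alternative, and every fat minus liver value passed under those run for it. With brighter probe sets only, DEFB1 (PBD-1), and DEFB1 (PBD-2) in fat, gave no value, and dim signals limit what they can show.

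Values that changed sign did not pass, and some moved far. The DEFB1 (PBD-2) interaction in liver was -0.13 in the main fit, -1.29 without replicate 6 and 0.57 without replicate 5. Leaving out each replicate number took N298 minus D298 from -0.14 to 0.06 for DEFB1 (PBD-1) and -0.15 to 0.10 for PGLYRP2 in fat, and from -0.42 to 0.22 for DEFB1 (PBD-2) and, in fed gilts, -0.13 to 0.02 for PGLYRP2 in liver. It took the interaction from -0.43 to 0.27 for DEFB1 (PBD-1), -0.38 to 0.58 for DEFB1 (PBD-2) and -0.43 to 0.20 for PGLYRP2 in fat, and -1.29 to 0.57 for DEFB1 (PBD-2) in liver. Without the 4 arrays high in ALB, N298 minus D298 in fat was 0.02 for DEFB1 (PBD-1) and 0.06 for PGLYRP2, and the interaction 0.09 and, for DEFB1 (PBD-2), -0.42. DEFB1 (PBD-1) in fat gave 0.0012 with quantile normalization and 0.0053 with the GAPDH ratio for genotype, and 0.05 with that ratio for the interaction. Array weights gave 0.05 for the DEFB1 (PBD-2) interaction in liver. The causes were not tested.

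Without the 2 farthest arrays, r between the DEFB1 probe sets was -0.44 in fasted liver and 0.04 in fed fat, and r between liver and fat was -0.03 for DEFB1 (PBD-2), -0.54 for PGLYRP2 and 0.51 for DEFB1 (PBD-1), the last 2 past the threshold (permutation adjusted p = 0.0247 each). With group means removed only, DEFB1 (PBD-1) gave 0.57 (permutation adjusted p = 0.0111). These permutation p-values between liver and fat took residuals as independent and are too small. With the replicate number removed first, PGLYRP2 and DEFB1 (PBD-2) in fasted fat gave 0.22.

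Of the 78 listed genes, 1 rose in liver with no replicate block, quantile normalization, median-centred arrays, brighter probe sets only or the GAPDH ratio, against 0, and 0 fell in fat with brighter probe sets only, against 3. Same-numbered arrays of different groups had a mean residual correlation of 0.0403 in liver and 0.0763 in fat, against -0.00736 and -0.0153 for other numbers, and were over 0.1 in 10 and 16 of 36 pairs, so the number was not seen to pair every set of arrays. With no replicate block the PGLYRP2 interaction in liver was 0.38, and no call on the 3 genes changed.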
